A study of Mus musculus with 12 samples.

Results

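Let-7 is a large family of small RNAs, and 19 of the 513 mature miRNA arms in a sequencing table of mouse hippocampus belong to it. The 19 rows were chosen by name alone, as every row whose name begins with Let-7. They comprise 9 guide arms (5p), which are the strands loaded into Argonaute, and 10 passenger arms (3p, marked with an asterisk), the partner strands that are mostly discarded. All 19 had a mean of at least 10 normalized counts and entered every test, and none was listed at 0 in any library. Small RNA libraries came from the hippocampus of 12 male wild-type C57BL/6J mice, the widely used inbred strain. The exercised lineage comprised 6 F2 mice whose F0 grandfathers, through the male line, had exercised, and the sedentary lineage 6 F2 mice whose F0 grandfathers had been sedentary. Exercise is described for the grandfathers alone, and an age of the F2 mice is not given. Submitter codes fall into 4 stems of 3 libraries each, R31 (mice 1 to 3) and R41 (mice 4 to 6) in the exercised lineage and S11 (mice 1 to 3) and S41 (mice 4 to 6) in the sedentary lineage. What a stem stands for is not stated. Mice of 1 stem may be kin, in which case the 6 mice of a lineage would not count as independent.

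A let-7 gene is transcribed as a long precursor that Drosha cuts to a hairpin and Dicer cuts to a duplex, from which usually the 5p strand is kept. The RNA-binding protein Lin28 holds let-7 back in stem and progenitor cells by binding the loop of the hairpin, and mature let-7 in turn represses Lin28. Guides accumulate as neurons differentiate and repress growth and progenitor genes such as Hmga2, Trim71 and the Ras genes. A guide recognises its targets mainly through its seed, the bases from position 2 to position 8.

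The mature guides of the mouse genes, taken from RefSeq (GRCm38.p6), are shown because they differ by so few bases that the rows of the table can be told apart only by these letters. The seed is in capitals, and all 9 distinct guides share GAGGUAG.
let-7a: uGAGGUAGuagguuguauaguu
let-7b: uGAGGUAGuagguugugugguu
let-7c: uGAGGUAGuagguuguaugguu
let-7d: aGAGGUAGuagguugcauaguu
let-7e: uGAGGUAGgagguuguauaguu
let-7f: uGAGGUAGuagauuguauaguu
let-7g: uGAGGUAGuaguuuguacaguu
let-7i: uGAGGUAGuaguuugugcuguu
miR-98: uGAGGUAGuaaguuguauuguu

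Each guide is 22 bases long. Set against let-7a and counted from 1 at the 5′ end, with the base of let-7a first, let-7c differed by A19G alone, let-7e by U9G and let-7f by G12A. Of the others, let-7b differed by A17G and A19G, let-7d by U1A and U16C, let-7g by G12U and U18C, and miR-98 by G11A and A19U. The most distant was let-7i, with G12U, A17G, U18C and A19U. Because 3 guides lie 1 base from let-7a, and the allowed mapping mismatches are not stated, part of the reads of one row may come from a neighbour.

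The table names its rows by paralogue number, P1 to P12, in the MirGeneDB manner, and does not pair these numbers with gene symbols. RefSeq lists 12 let-7 genes when Mir98 is counted, and the rows name 12 paralogues. There are 9 guide rows and 9 distinct guide sequences. In 3 guide rows the name joins paralogues (P10 with P5, P1 with P6, P3 with P7), and 3 guide sequences are encoded by a pair of genes each, let-7a, let-7c and let-7f. One passenger row joins P6 with P7, and 1 passenger sequence is shared by a pair of genes.
let-7a-1 and let-7c-2 passenger: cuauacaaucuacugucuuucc

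Read on the assumption that joined names stand for identical sequences, this pattern identifies the P10/P5 guide as let-7f. The P1/P6 and P3/P7 guides are then let-7a and let-7c in an order that the pattern does not settle, and the remaining rows cannot be named from it. The rows are therefore called by their paralogue numbers here. RefSeq holds 11 distinct passenger sequences against 10 passenger rows, and P10 is the paralogue without a passenger row.

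The genes lie in several places of the mm10 genome, given here with positions from RefSeq and host genes from the GENCODE annotation of that build. Mirlet7a-1 (chr13:48538179-48538272), Mirlet7f-1 (chr13:48537829-48537917) and Mirlet7d (chr13:48536012-48536114), all on the minus strand, lie together in exonic sequence of the lincRNA 6720427I07Rik. Mirlet7c-2 (chr15:85706603-85706697) and Mirlet7b (chr15:85707319-85707403), on the plus strand, lie in exonic sequence of the non-coding transcript Lncppara. Mirlet7f-2 (chrX:151912346-151912428) and Mir98 (chrX:151913214-151913321), on the plus strand, are intronic in Huwe1, a ubiquitin ligase gene. Mirlet7g (chr9:106178840-106178927, plus) is intronic in Wdr82, and Mirlet7i (chr10:122985640-122985724, minus) lies in an exon of the transcribed pseudogene D630033A02Rik. Another 3 genes have a member of the Mir-10 family beside them. Mirlet7a-2 (chr9:41536716-41536811, plus) lies in an intron of the non-coding transcript 3110039I08Rik, 5212 bases from Mir100. Mirlet7c-1 (chr16:77599657-77599750, plus) is in an intron of Mir99ahg, 657 bases from Mir99a. Mirlet7e (chr17:17830352-17830444, plus) is in an intron of Spaca6, 368 bases from Mir125a. The letters GGAG, a motif bound by Lin28 in the loop, occurred between the arms on the hairpin strand in 9 of the 12 hairpins and not in Mir98, Mirlet7b and Mirlet7c-2. The same letters stood between the arms in 44 of 633 other mouse hairpins with 2 listed arms, or 6.95%.

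Levels are normalized counts, that is reads per arm divided by 1 size factor per library. Depth was 6862623 to 10219856 reads per library, of which 522556 to 1042110 were let-7. The labels name no molecular identifiers, so PCR copies were not told apart from separate molecules. Where rows are compared with each other, the values are reads of different sequences. Whether the library kit captured all sequences equally was not tested. The neuronal marker families (6 of 6 found, 16 rows, including Mir-9 and Mir-124) held 34.3% to 40.1% of all normalized counts, and no row among them was at 0. Families of the choroid plexus and ependyma (4 of 5 found) held 0.521% to 2.77%, those of mural cells (2 of 2) 2.89% to 7.597%, and those of erythroid cells (3 of 3) at most 0.0149%. Exercised mouse 1 had the lowest neuronal share, the highest choroid plexus share and the smallest total, 6458450 normalized counts against 7793644 to 9370388 in the other 11 libraries. The neuronal rows did not all go this way. In normalized counts the Mir-9 5p guide, most of their sum, was lowest in this mouse, and the Mir-124 guide was highest. Exercised mouse 1 also stood apart in let-7, so results that rest on it are given with and without it. In these bulk samples, fewer cells of a type and less RNA per cell cannot be told apart.

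Most of the family was made up of 3 guides. Let-7-P12_5p had 126014 (lowest), 217420 (median) and 246230 (highest) normalized counts in the exercised lineage, against 197225, 234764 and 279057 in the sedentary lineage. Let-7-P10_5p/7-P5_5p, the let-7f row on the reading above, had 139033, 212222 and 236416 in the exercised lineage, against 207635, 227962 and 292176 in the sedentary lineage. Let-7-P11_5p had 97810, 180795 and 197632 in the exercised lineage, against 167854, 193367 and 222515 in the sedentary lineage. In each of these rows the lowest library was exercised mouse 1, and the ranges of the lineages overlapped. Among all 513 rows they ranked 8, 9 and 12 by mean.

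The next guides were lower at each step. Let-7-P3_5p/7-P7_5p had 56167, 85085 and 94700 in the exercised lineage, against 79077, 92580 and 102659 in the sedentary lineage. Let-7-P1_5p/7-P6_5p had 29648, 41514 and 48251 in the exercised lineage, against 41759, 45653 and 50640 in the sedentary lineage. These are the rows read as let-7a and let-7c, and P3/P7 exceeded P1/P6 in 12 of 12 libraries, by 1.88-fold to 2.17-fold. Let-7-P8_5p averaged 18285 ± 1880 in exercised-lineage mice and 19764 ± 2546 in sedentary-lineage mice (SD, n = 6 each, as for all means below). Let-7-P4_5p averaged 10977 ± 1499 in exercised-lineage mice and 12568 ± 1051 in sedentary-lineage mice. Let-7-P9_5p, the lowest guide, averaged 2081 ± 266 in exercised-lineage mice and 2339 ± 186 in sedentary-lineage mice.

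Let-7-P2_5p was the guide that followed the others least. It had 5813, 8112 and 9169 normalized counts (lowest, median, highest) in the exercised lineage, against 6416, 7150 and 11911 in the sedentary lineage. Sedentary mouse 1 held the highest value, and 5 of 6 exercised mice lay above the sedentary median, whereas in each of the other 8 guides 4 or 5 of 6 lay below it. All 9 guides were lowest in exercised mouse 1. The highest library was sedentary mouse 1 for 5 guides and sedentary mouse 6 for the other 4.

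The order of the guides was nearly the same in all mice. Each guide exceeded the next lower one in 12 of 12 libraries, with the exception of the top pair. P12 exceeded P10/P5 in 5 of 12 libraries, with ratios from 0.788 to 1.22, so the order of these 2 rows did not differ beyond their spread. The median ratio within a library was 2.05 between P11 and P3/P7, 2.01 between P3/P7 and P1/P6 and 2.23 between P1/P6 and P8, and it was largest, at 3.52, between P2 and P9. Levels of mature arms are compared without a length term, because all guides have the same length.

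**Figure D1:**
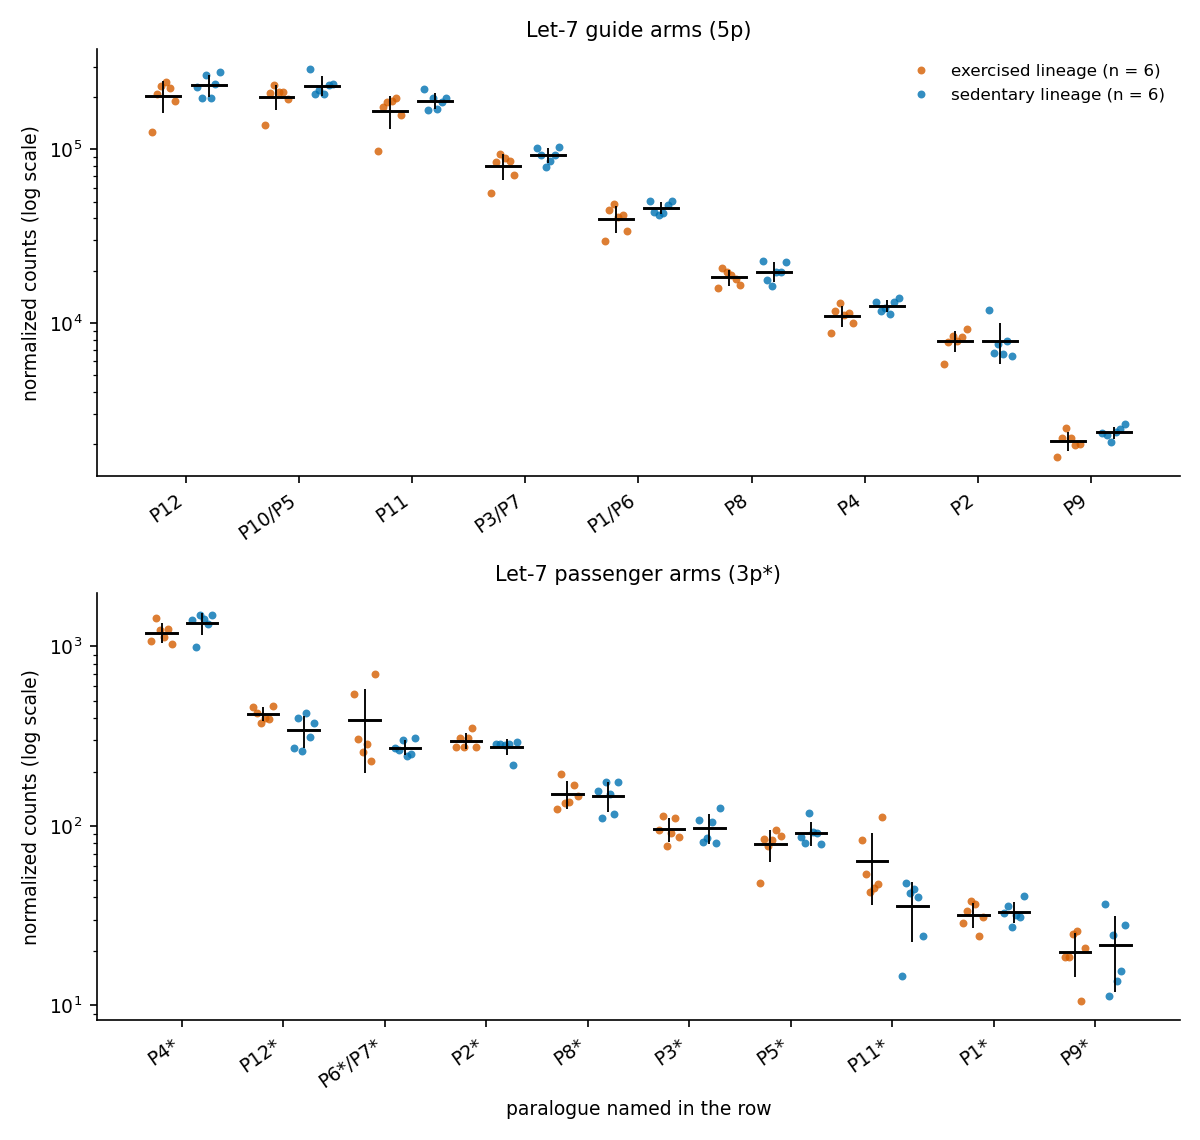
Normalized counts (log axis) of the 9 guide rows (top) and the 10 passenger rows (bottom), each point 1 mouse, with the mean (horizontal bar) and SD (vertical bar) of the 6 exercised-lineage mice at the left and the 6 sedentary-lineage mice at the right of each row. Mean guide levels run from 204530 (exercised) and 235562 (sedentary) for P12 to 2081 (exercised) and 2339 (sedentary) for P9, all passengers lie below the lowest value of the P9 guide, 1688, and the lineages overlap in every row.

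As shares of the summed guides, P12 held 27.8% ± 1.27 in exercised-lineage mice and 28.0% ± 2.80 in sedentary-lineage mice, P10/P5 held 27.6% ± 1.07 in the exercised mice and 27.7% ± 1.74 in the sedentary mice, and P11 held 22.7% ± 1.37 in the exercised mice and 22.7% ± 0.694 in the sedentary mice. These 3 rows together made up 78.1% ± 1.47 of the guides in exercised-lineage mice and 78.4% ± 1.55 in sedentary-lineage mice. With P3/P7 (10.98% ± 0.444 in exercised-lineage mice and 11.03% ± 1.00 in sedentary-lineage mice) the 4 highest guides held 89.1% ± 1.08 in the exercised mice and 89.4% ± 0.594 in the sedentary mice. The P1/P6 guide held 5.49% ± 0.499 in exercised-lineage mice and 5.49% ± 0.330 in sedentary-lineage mice. Over all 12 libraries, P8 held 2.45%, P4 1.51% and P9 0.284% of the guides. The differences of these shares between lineages were smaller than the SD of either lineage for all guides but P2. The P2 guide held 1.09% ± 0.148 in exercised-lineage mice and 0.929% ± 0.180 in sedentary-lineage mice, and 6 of 6 exercised mice lay above the sedentary median, although sedentary mouse 1, at 1.26%, exceeded 5 of them. Shares were not tested, since they are fixed to sum to the same total.

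**Figure D2:**
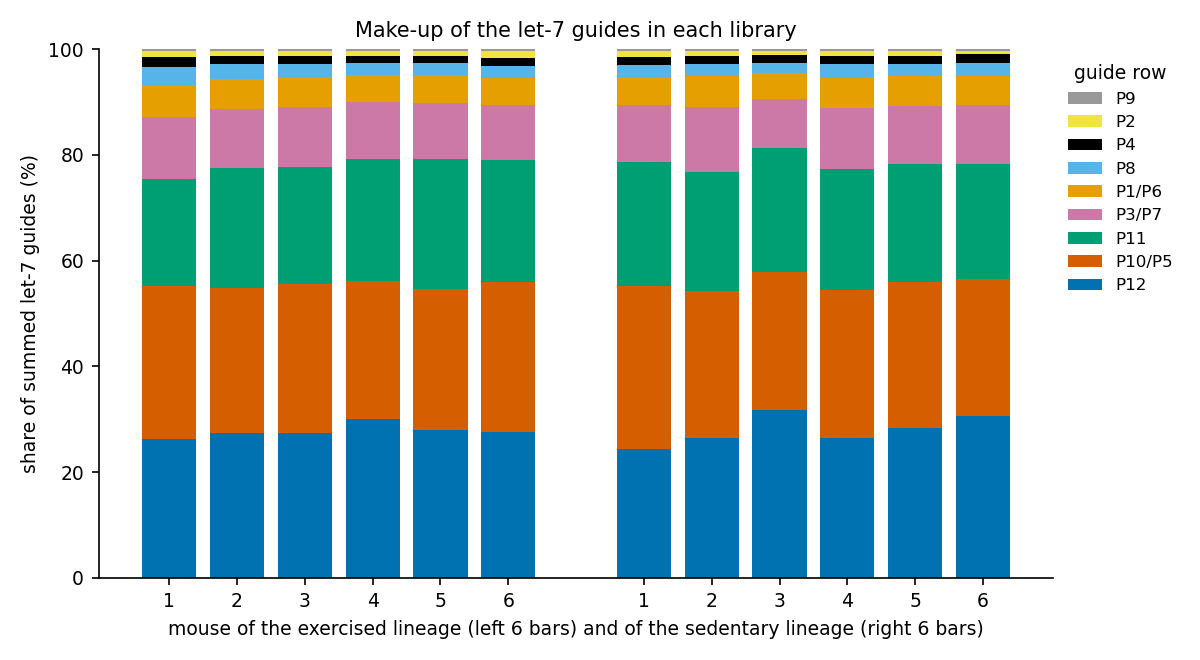
Share of each guide row in the summed let-7 guides (%, bars stacked to 100) for each of the 12 mice, the exercised lineage in the left 6 bars and the sedentary lineage in the right 6. The P12, P10/P5 and P11 rows fill 75.5% to 81.2% of every bar, and the make-up differs little between mice.

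The family as a whole held 8.997% ± 1.02 of all normalized counts in exercised-lineage mice and 9.80% ± 0.659 in sedentary-lineage mice. The lowest, median and highest shares were 7.49%, 9.07% and 10.2% in the exercised lineage, against 9.15%, 9.78% and 10.7% in the sedentary lineage. The difference of the means was -0.81 percentage points, and -0.51 without exercised mouse 1, against an SD of 1.02 in exercised-lineage mice and 0.659 in sedentary-lineage mice, so that the first exceeded the sedentary SD and neither exceeded the exercised SD. The guide sum was 480754, 786551 and 840715 normalized counts (lowest, median, highest) in the exercised lineage, against 744138, 847407 and 947690 in the sedentary lineage. All 6 exercised mice lay below the sedentary median, while 4 of them lay inside the sedentary range. Without exercised mouse 1 the mean guide sum was 783467 ± 61082 in the exercised lineage (n = 5), against 841299 ± 83380 in the sedentary lineage.

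Passenger arms were present at a small fraction of the guides and did not follow their order. They made up 0.388% ± 0.101 of the family counts in exercised-lineage mice and 0.318% ± 0.0338 in sedentary-lineage mice. Let-7-P4_3p* was by far the highest, with 1037, 1187 and 1441 normalized counts (lowest, median, highest) in the exercised lineage, against 990, 1408 and 1497 in the sedentary lineage. Its guide was among the 3 lowest of the 9 guides. The passenger held 43.7% ± 5.54 of all passenger counts in exercised-lineage mice and 50.5% ± 3.95 in sedentary-lineage mice, with 6 of 6 exercised mice below the sedentary median. In normalized counts, 5 of 6 lay below it.

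Let-7-P12_3p* had 373, 412.7 and 468 normalized counts (lowest, median, highest) in the exercised lineage, against 262, 343 and 427 in the sedentary lineage. All 6 exercised mice lay above the sedentary median, and the ranges overlapped. Let-7-P6_3p*/7-P7_3p*, the row with the passenger sequence printed above on the same reading, had 540.3, 306.5, 259.7, 286.7, 231.3 and 700.2 in exercised mice 1 to 6. In sedentary mice 1 to 6 it had 270.3, 265.5, 300.05, 244.0, 252.9 and 309.1. Exercised mice 1 and 6 stood above all others, and the other 4 exercised mice lay within or just under the sedentary range. Let-7-P2_3p* averaged 299 ± 29.9 in exercised-lineage mice and 276 ± 28.0 in sedentary-lineage mice.

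The remaining passengers stood below 200 normalized counts. Let-7-P8_3p* averaged 151 ± 26.4 in exercised-lineage mice and 148 ± 28.7 in sedentary-lineage mice, Let-7-P3_3p* 95.9 ± 14.3 in the exercised mice and 97.6 ± 18.5 in the sedentary mice, and Let-7-P5_3p* 79.2 ± 16.2 in the exercised mice and 91.2 ± 14.2 in the sedentary mice. Let-7-P11_3p* had 83.3, 53.9, 42.9, 45.1, 47.7 and 111.7 in exercised mice 1 to 6. In sedentary mice 1 to 6 it had 14.6, 48.2, 42.2, 44.6, 40.4 and 24.5. Exercised mice 6 and 1 were highest and sedentary mice 1 and 6 lowest, all 6 exercised mice lay above the sedentary median, and 2 sedentary mice, 2 and 4, lay within the exercised range. This row rested on as few as 12 reads in a library, yet its coefficient of variation over the 12 libraries, 50.9%, exceeded the 14.0% that counting alone gives. Let-7-P1_3p*, at 32.1 ± 5.15 in exercised-lineage mice and 33.3 ± 4.59 in sedentary-lineage mice, varied by 14.4%, within the 17.3% that counting gives. Let-7-P9_3p*, the lowest row, averaged 19.9 ± 5.56 in exercised-lineage mice and 21.7 ± 9.80 in sedentary-lineage mice on 10 to 31 reads per library.

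The order of the passengers was firm only at the top and in the middle. P4* exceeded P12* in 12 of 12 libraries, by 2.22-fold to 5.72-fold, and P2* exceeded P8*, and P8* exceeded P3*, in 12 of 12. P12*, P6*/P7* and P2* did not keep an order, with P12* above P6*/P7* in 8 of 12 and P6*/P7* above P2* in 5 of 12 libraries. P3* exceeded P5* in 8 of 12, P5* exceeded P11* in 10 of 12, P11* exceeded P1* in 10 of 12 and P1* exceeded P9* in 11 of 12.

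The guide to passenger ratio differed between paralogues far more than between mice. It was the guide count over the summed passenger rows of the same paralogues, and it does not depend on the scaling of a library. It is a ratio of reads and not of molecules, since the capture of each sequence was not measured. Over the 12 libraries the mean ratio ran from 9.31 for P4 to 4879 for P11. Ratios were compared over the 155 guide rows with a mean of at least 10 whose summed passenger rows also had a mean of at least 10. Hairpins with fewer passenger counts are thus not among those ranked. Over the 155 the median ratio of mean counts was 21.7, and it was 127 over the 9 let-7 guides and 19.5 over the other 146. From the highest of the 155, let-7 guides ranked 7 (P11), 9 (P10/P5), 13 (P12), 28 (P3/P7), 37 (P8), 38 (P1/P6), 41 (P9), 72 (P2) and 95 (P4).

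The P11 ratio was 1175, 3691 and 4357 (lowest, median, highest) in the exercised lineage, against 3484, 4690 and 15229 in the sedentary lineage. It was lowest in exercised mice 1 and 6, at 1175 and 1413, and highest in sedentary mouse 1, a 12.97-fold span. The P10/P5 ratio averaged 2584 ± 327 in exercised-lineage mice and 2614 ± 536 in sedentary-lineage mice. Its denominator is the P5 passenger alone, since P10 has no passenger row. The P12 ratio was 274, 531 and 619 in the exercised lineage, against 462, 756 and 1031 in the sedentary lineage, and 6 of 6 exercised mice lay below the sedentary median.

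The P3/P7 and P1/P6 guides share the P6*/P7* passenger row, so their ratios are not separate measurements. For P3/P7 the ratio averaged 191 ± 82.7 in exercised-lineage mice and 250.3 ± 27.2 in sedentary-lineage mice, with 88.4 and 91.0 in exercised mice 1 and 6. For P1/P6 it averaged 114 ± 52.4 in exercised-lineage mice and 151 ± 15.5 in sedentary-lineage mice, with 52.1 and 46.4 in the same mice. With each passenger row counted once, the combined ratio of the 4 paralogues averaged 264 ± 109.6 in exercised-lineage mice and 344 ± 34.1 in sedentary-lineage mice. The other 4 exercised mice had combined ratios from 285 to 382, against 293 to 386 in the sedentary lineage.

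Among the lower ratios, P4 had a coefficient of variation of 12.2% over the 12 libraries and P9 of 38.4%, against 16.3% for P10/P5 and 75.8% for P11. The P8 ratio averaged 123 ± 17.3 in exercised-lineage mice and 137 ± 27.2 in sedentary-lineage mice, and the P9 ratio 112.1 ± 38.3 in exercised-lineage mice and 128 ± 55.4 in sedentary-lineage mice. The P2 ratio averaged 26.5 ± 4.38 in exercised-lineage mice and 28.8 ± 8.20 in sedentary-lineage mice. The P4 ratio was 8.10, 9.36 and 10.5 (lowest, median, highest) in the exercised lineage, against 7.90, 9.37 and 11.7 in the sedentary lineage. The lineages overlapped throughout for P4, the row in which the passenger comes closest to its guide.

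**Figure D3:**
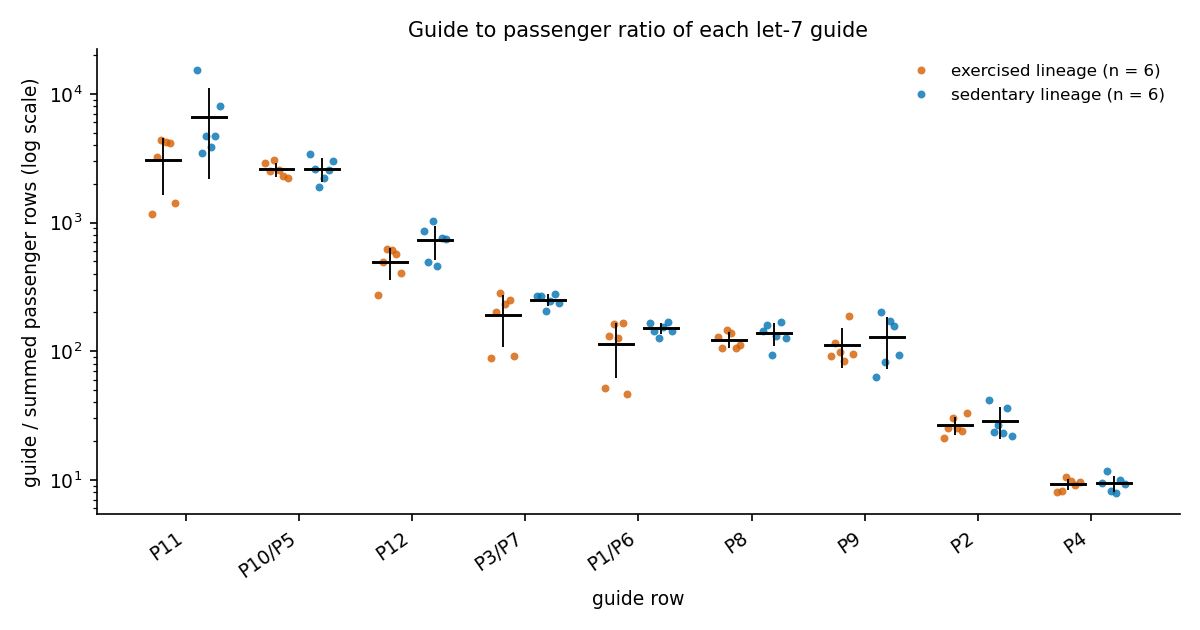
Guide count divided by the summed passenger counts of the same paralogues (log axis) for the 9 let-7 guide rows, each point 1 mouse, with mean and SD of the 6 exercised-lineage mice at the left and the 6 sedentary-lineage mice at the right. Mean ratios run from 3088 (exercised) and 6669 (sedentary) for P11 to 9.21 (exercised) and 9.42 (sedentary) for P4, and exercised mice 1 and 6 lie lowest for P11, P3/P7 and P1/P6.

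The lineages were compared arm by arm with limma on log2(normalized count + 1), fitted over the 474 arms with a mean of at least 10 and adjusted over all of them by the Benjamini-Hochberg method. A fold is the exercised minus the sedentary mean on that scale. At an adjusted p below 0.05, 0 of 19 let-7 arms were called, as were 0 of the 474 arms (0%). At an unadjusted p below 0.05, 2 let-7 arms passed, the passengers P11* and P12*, against 34 of 474 arms (7.17%). Adjusted p over the 19 arms ran from 0.532 to 0.979. The groups overlapped in all 474 arms (0% without overlap).

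Among the guides 8 of 9 folds lay below 0, against 238 of 474 (50.2%) over all arms, and the median fold was -0.22 against -0.00. The folds were close to each other, at -0.22 (SE 0.15) for P12, -0.22 (SE 0.13) for P10/P5, -0.22 (SE 0.15) for P11, -0.22 (SE 0.12) for P3/P7 and -0.22 (SE 0.12) for P1/P6. The P4 guide stood at -0.20 (SE 0.10), P9 at -0.17 (SE 0.10), P8 at -0.11 (SE 0.10) and P2 at 0.03 (SE 0.15). Without exercised mouse 1 the median guide fold was -0.12, with a range from -0.14 to 0.11 and 8 of 9 below 0. The 95% intervals of the guide folds, not adjusted for the number of arms, reached 0.21 to 0.33 to either side, and each of them held 0. The guides varied together, so 8 folds on one side of 0 are not 8 separate observations.

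Among the passengers 5 of 10 folds lay below 0, with a median of 0.01. Let-7-P11_3p* had a fold of 0.84 (SE 0.32, 95% interval 0.14 to 1.53, limma with Benjamini-Hochberg adjusted p = 0.532), and 0.74 without exercised mouse 1 and 0.66 without exercised mouse 6. Let-7-P12_3p* had a fold of 0.32 (SE 0.13, 95% interval 0.04 to 0.60, limma with Benjamini-Hochberg adjusted p = 0.532). Let-7-P6_3p*/7-P7_3p* had a fold of 0.38 (SE 0.24), and 0.18 without exercised mouse 6. Let-7-P4_3p* stood at -0.18 (SE 0.12). Let-7-P5_3p* stood at -0.22 (SE 0.17), and at -0.083 without exercised mouse 1 and -0.14 without sedentary mouse 3. Let-7-P2_3p* stood at 0.12 (SE 0.10), and at 0.054 without sedentary mouse 5 and 0.072 without exercised mouse 5. The folds of P8*, P3*, P1* and P9* lay between -0.06 and 0.04. None of these passed the adjusted threshold.

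The guide to passenger ratios were fitted in the same way over the 155 guide rows. After adjustment 0 of 9 let-7 ratios were called, as were 0 of 155 (0%), and 1 let-7 ratio had an unadjusted p below 0.05, against 8 of 155 (5.16%). All 9 let-7 ratio folds lay below 0, with a median of -0.15, against 87 of 155 and a median of -0.03 over all ratios. The guides varied together, and P1/P6 and P3/P7 share a passenger row, so these are not 9 separate observations. The P11 ratio had a log2 fold of -1.06 (SE 0.44, 95% interval -2.02 to -0.09, limma with Benjamini-Hochberg adjusted p = 0.585), and -0.82 without exercised mouse 1. The P1/P6 ratio stood at -0.57 (SE 0.32), P12 at -0.55 (SE 0.25) and P3/P7 at -0.53 (SE 0.30). Without exercised mouse 1 the P1/P6 ratio fold was -0.38 and the P3/P7 ratio fold -0.33, and without exercised mouse 6 they were -0.34 and -0.34. The ratios of P8, P9, P2, P4 and P10/P5 lay between -0.15 and -0.00. Leaving out exercised mouse 1 left 8 of 9 below 0.

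Over the 12 libraries the guides varied together. For each of the 36 pairs of guides, Pearson's r of log2(normalized count + 1) was above 0, with a median of 0.80 and a range from 0.16 to 0.97, where all 112101 pairs of tested arms had a median of -0.00. Spearman's rho had a median of 0.66 (0.01 to 0.89). With a permutation test of 100000 resamples (two-sided) and Benjamini-Hochberg adjustment over all 112101 pairs, 9 of the 36 guide pairs were called, against 477 of all pairs (0.426%). At an unadjusted permutation p below 0.05, 28 of 36 passed for r, against 12.9% of all pairs, and 20 of 36 for rho, against 11.1% of all pairs. For rho, 0 guide pairs and 0% of all pairs were called after adjustment. The smallest p that the resamples can give is 1e-05, and with so many pairs only those near it can pass.

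Without exercised mouse 1 the median r of the 36 guide pairs was 0.66. No guide pair was called then, and neither was any of the 112101 pairs (0%), as was also the case without exercised mouse 2 or 6 or sedentary mouse 4. With the 2 libraries farthest from the median of the more abundant arm of a pair left out, the median was 0.56 (-0.54 to 0.95). Within the exercised lineage it was 0.86 (0.36 to 0.99) and within the sedentary lineage 0.64 (-0.18 to 0.93), on 6 libraries each. With scaling by library totals the median of the guide pairs was 0.51 and 4 were called, where all pairs had a median of 0.15 and 2472 (2.21%) were called.

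The tightest pair was P1/P6 with P4, at r = 0.97 (permutation p = 2e-05, adjusted p = 0.0249, 12 libraries) and rho = 0.89 (permutation p = 0.00033, adjusted p = 0.111). Its r was 0.90 without the 2 farthest libraries, 0.99 within exercised-lineage mice and 0.85 within sedentary-lineage mice. P1/P6 with P3/P7, the rows read as let-7a and let-7c, reached r = 0.96 (permutation p = 1e-05, the smallest they can give, adjusted p = 0.0197) and rho = 0.87 (permutation p = 0.00051, adjusted p = 0.127). This pair had r = 0.85 without the 2 farthest, 0.95 within exercised-lineage mice and 0.93 within sedentary-lineage mice. P10/P5 with P11 reached r = 0.94 (permutation p = 7e-05, adjusted p = 0.0349) and rho = 0.86 (permutation p = 0.00071, adjusted p = 0.134). This pair had r = 0.76 without the 2 farthest, 0.97 within exercised-lineage mice and 0.91 within sedentary-lineage mice. The other 6 called pairs joined P3/P7, P10/P5, P4, P9 and P1/P6 among themselves, with r from 0.89 to 0.91. P12, the highest guide on average, was in no called pair. Its r was highest with P11, at 0.92 (permutation p = 0.00045, adjusted p = 0.0666, rho = 0.82). That pair had 0.98 within exercised-lineage mice and 0.64 within sedentary-lineage mice. With P3/P7 the r of P12 was 0.80, with 0.97 within exercised-lineage mice and 0.11 within sedentary-lineage mice.

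The P2 guide stood apart from the others. Its 8 pairs had a median r of 0.35 (0.16 to 0.67), and a median of 0.01 without exercised mouse 1. Of the 8 pairs 0 were called, against 0.426% of all pairs, and 1 had an unadjusted permutation p below 0.05, against 12.9%. The 28 pairs without P2 had a median of 0.85 (0.51 to 0.97). Within exercised-lineage mice the median was 0.67 (0.36 to 0.82) for the P2 pairs and 0.90 (0.69 to 0.99) for the others. Within sedentary-lineage mice it was 0.35 (-0.18 to 0.88) for the P2 pairs and 0.66 (0.04 to 0.93) for the others. This contrast between P2 and the other guides was seen in the data and was not tested.

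As a set, the passengers did not share a common course. Their 45 pairs had a median r of -0.01 (-0.61 to 0.71). Of these 0 were called, against 0.426% of all pairs. At an unadjusted permutation p below 0.05, 5 of 45 passed, no more than the 12.9% of all pairs. The highest was P11* with P12*, at r = 0.71 (permutation p = 0.00938, adjusted p = 0.209) and rho = 0.84 (permutation p = 0.00113, adjusted p = 0.153), with r = 0.71 without the 2 farthest libraries, 0.94 within exercised-lineage mice and 0.43 within sedentary-lineage mice. P11* and P6*/P7* had r = 0.66 over the 12 libraries (permutation p = 0.0252, adjusted p = 0.300, rho = 0.34), 0.97 within exercised-lineage mice and -0.30 within sedentary-lineage mice, and -0.17 without exercised mice 1 and 6. Some pairs had a similar r in both lineages. P3* with P8* had r = 0.71 (permutation p = 0.0122, adjusted p = 0.229, rho = 0.75). Within exercised-lineage mice its r was 0.74 and within sedentary-lineage mice 0.69. P4* with P8* had r = 0.69 (permutation p = 0.0148, adjusted p = 0.247, rho = 0.78). Within exercised-lineage mice its r was 0.78 and within sedentary-lineage mice 0.83.

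Guides and their own passengers also did not move as one. The 11 pairs of a guide row with a passenger row of its paralogues had a median r of 0.16 (-0.78 to 0.64). Of these 0 were called, against 0.426% of all pairs, and 5 had an unadjusted permutation p below 0.05, against 12.9%. The 79 pairs of a guide with a passenger of other paralogues had a median of 0.14 (-0.82 to 0.80). Among them 0 were called and 20 had an unadjusted permutation p below 0.05. For P4 guide and passenger went together, at r = 0.64 (permutation p = 0.0228, adjusted p = 0.289) and rho = 0.59 (permutation p = 0.0490, adjusted p = 0.448), with r = 0.52 without the 2 farthest libraries, 0.70 within exercised-lineage mice and 0.41 within sedentary-lineage mice. For P11 they ran against each other, at r = -0.70 (permutation p = 0.0220, adjusted p = 0.285) and rho = -0.81 (permutation p = 0.00218, adjusted p = 0.184), with -0.78 without the 2 farthest, -0.64 within exercised-lineage mice and -0.86 within sedentary-lineage mice. For P12 they did so too, at r = -0.62 (permutation p = 0.0330, adjusted p = 0.332) and rho = -0.76 (permutation p = 0.00537, adjusted p = 0.237), with -0.76 without the 2 farthest, -0.75 within exercised-lineage mice and -0.56 within sedentary-lineage mice. Neither course was particular to the own guide. With the other guides P11* had r from -0.82 (P1/P6) to -0.37 (P2), and P12* from -0.68 (P10/P5) to -0.28 (P8). The P6*/P7* passenger had r = -0.78 with the P1/P6 guide (permutation p = 0.0124, adjusted p = 0.230, rho = -0.32) and -0.74 with the P3/P7 guide (permutation p = 0.0166, adjusted p = 0.258, rho = -0.37), which became 0.14 and 0.04 without exercised mice 1 and 6, so these relations rest on those libraries. The P10/P5 guide had r = 0.64 with P5* (permutation p = 0.0598, adjusted p = 0.411, rho = 0.05), and -0.11 without exercised mouse 1.

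**Figure D4:**
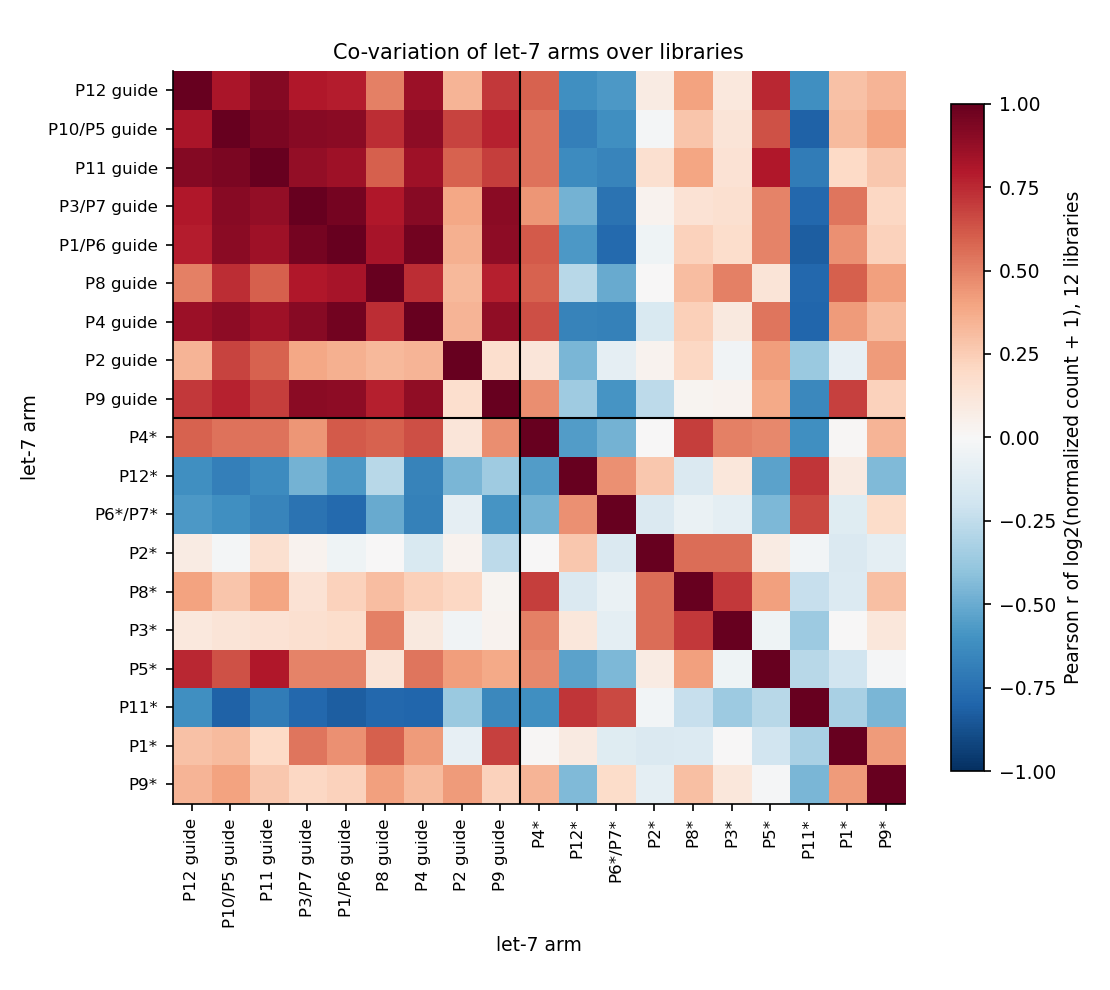
Pearson's r of log2(normalized count + 1) over the 12 libraries for every pair of the 19 let-7 arms, guides first and passengers after the black lines, red above 0 and blue below 0. The guide block is red with P2 paler than the rest, and the P11*, P12* and P6*/P7* passengers are blue against the guides.

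Arms of other families were ranked by their r with the log2 summed guides, over the 305 arms outside the family with a mean of at least 100. The median r of these arms was 0.10, with a wide spread from -0.77 at the 5th percentile to 0.86 at the 95th. These arms were picked for their r, so the values are a description without a test. The 5 highest were Mir-423_3p* (0.95), the 3p row of both Mir-361 variants (0.94), Mir-146-P2_5p (0.94), Mir-7-P3_5p (0.94) and Mir-541_5p (0.93). The 3 lowest were Mir-879_5p (-0.94), the shared Mir-124 3p guide (-0.92), which marks neurons, and Mir-154-P8_3p (-0.88). Without exercised mouse 1 the 5 highest ran from 0.78 to 0.87 and the 3 lowest from -0.86 to -0.74.

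The Mir-124 guide had 33004, 41821 and 72090 normalized counts (lowest, median, highest) in the exercised lineage, against 26668, 31054 and 48140 in the sedentary lineage, with exercised mouse 1 highest. Its fold was 0.38 (SE 0.20, limma with Benjamini-Hochberg adjusted p = 0.532), and its part in the let-7 values was not tested. The other neuronal marker rows did not all run this way. Of the 16 rows, 7 had r above 0 with the summed let-7 guides and 9 below 0, with a range from -0.92 to 0.83. The summed level of the 16 rows, most of it the Mir-9 5p guide (r = 0.83), had r = 0.85, and 0.54 without exercised mouse 1 and 0.41 with scaling by library totals.

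The miR-99, miR-100 and miR-125 arms, listed as Mir-10-P2 and Mir-10-P3, include the genes that neighbour 3 let-7 genes. Of their 11 arms, 5 guides and 6 passengers, 0 were called, as were 0 of all 474 tested arms (0%). All 5 guides had folds below 0, with a median of -0.17, against 3 of 6 passengers and 238 of all 474 arms (50.2%). Whether the 5 guides varied separately was not tested, so they may not be 5 separate observations. The 3 most abundant were Mir-10-P2b_5p, with 333759 ± 41214 normalized counts in exercised-lineage mice and 374391 ± 42939 in sedentary-lineage mice, Mir-10-P2a_5p, with 154936 ± 25525 in the exercised mice and 173228 ± 21393 in the sedentary mice, and Mir-10-P3b_5p/10-P3c_5p, with 71178 ± 7141 in the exercised mice and 75320 ± 4098 in the sedentary mice. Their r with the summed let-7 guides was 0.77, 0.59 and 0.93 over the 12 libraries, and 0.26, -0.11 and 0.36 with scaling by library totals.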

How the data were processed

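Per the labels' protocols, an miRNeasy kit gave the hippocampal RNA and the NEBNext small RNA kit the libraries. What was deposited is a signal that is never negative, reads per mature arm divided by 1 size factor per library. Bowtie 1.3.0, the build mm10 and DESeq2 are named in the submitters' processing notes. Trimming, allowed mismatches and the handling of reads with several matches are not given in the sources used. In every library 100% of the values were whole multiples, within 0.01, of 1 step, which was taken as 1 read for depth and counting error. The smallest positive value stood for 2 to 6 reads, so that the step could not be read from it, and no count model was fitted.

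Tests used limma 3.58.1 in R 4.3.3 on log2(value + 1), in which the added 1 understates differences of low values. The fit used a trend of the variance on the mean. Arms needed a mean of at least 10. Ratio tests used the log2 guide minus the log2 summed passengers. Correlations, sums, shares and ranks were computed in Python 3.11.15 with numpy 2.4.6, scipy 1.17.1 and pandas 2.3.3. Both tests were tested on simulated data of 474 arms. The limma comparison of 6 against 6 libraries called 16% of arms planted with a 1.25-fold difference, 50% of those with 1.5-fold, 68% of those with 2-fold and 84% of those with 3-fold. It called 5 of 2170 unchanged arms. The pair test called 36 of 36 planted pairs and 70 of 110295 unrelated ones. These pairs were planted tighter than the median real guide pair and beside a second correlated block, so they do not measure power for the real pairs.

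The rows that are not let-7 were named by rule, as the 5 highest and 3 lowest correlations with the summed guides and the 3 most abundant Mir-10-P2 and Mir-10-P3 arms. Beyond these, the Mir-9 5p guide is named as the largest row of the neuronal marker list. The members, lists and rules were chosen with earlier results of these data known. Nothing in the labels says whether the mice are from separate litters, so p-values measure the spread between these samples. Alternatives covered scaling, pseudocount, filter, trend, centring, rank correlation and leaving out each library or stem. Libraries with the same mouse number were no more alike than others (1 of 6 pairs above a correlation of 0.1 in their deviations, range -0.17 to 0.15), so numbers were not used as pairs.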

Additional observations from a re-analysis of the deposited data

Results flagged for a closer look

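In 76 groups of 6 values (19 arms, 9 guide to passenger ratios and further family measures in each lineage), the gap of the extreme library to the nearest other, over the whole range, exceeded Dixon's 95% critical value in 7. Chance alone gives about 5% of groups. Sedentary mouse 1 stood above its lineage in 2 guides, with 292176 normalized counts of Let-7-P10_5p/7-P5_5p, where the other 5 had 207635 to 238028, and 11911 of Let-7-P2_5p, where the others had 6416 to 7901. Sedentary mouse 2 had 990 of Let-7-P4_3p*, below the 1331 to 1497 of the others. Sedentary mouse 5 had 219 of Let-7-P2_3p*, below 284 to 295. Let-7-P5_3p* was low in exercised mouse 1, at 48.1 where the others had 77.7 to 94.4, and high in sedentary mouse 3, at 118 where the others had 78.9 to 92.9. The guide to passenger ratio of Let-7-P9_5p was 187 in exercised mouse 5, where the others had 83.4 to 117.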

How the results depend on the processing

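In all settings run, 0 let-7 arms and 0 let-7 ratios were called, the replicate block by mouse number included (0 arms and 0 ratios called). The number of guide pairs called, 9, was 0 to 6 with 1 library left out. It was 0 without exercised mouse 1, 2 or 6 or sedentary mouse 4, 0 without stem R31, R41, S11 or S41, and 0 with Spearman's rho, and in each of these settings 0 of all 112101 pairs were called. It was 4 with scaling by totals (2.21% of all pairs called, against 0.426% as deposited), 4 with upper-quartile scaling (0.368%), 6 centred by lineage (0.582%) and 19 centred by stem (2.08%). Centring leaves fewer free values than libraries, which the permutation did not take into account, so p-values after centring may be too small. The cause of the changes was not tested. The family share difference of -0.81 percentage points ranged from -1.05 to -0.51 with 1 library left out.

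With all 12 libraries and the scaling as deposited, the folds that changed sign elsewhere lay between -0.12 and 0.04. P2_5p became -0.084 without R41 and -0.12 without S41, P3_3p* 0.064 without S41, P1_3p* 0.0073 without R41, and P9_3p* 0.038 without R41 and 0.073 without S11. With scaling by totals P3_3p*, P1_3p* and P9_3p* became 0.069, 0.027 and 0.033, and with upper-quartile scaling 0.044, 0.0020 and 0.0074. The ratio fold of P4 became 0.023 without R31 and 0.024 without S11, that of P10/P5 0.12 without R41 and 0.0083 without S41, and that of P9 0.080 without S41. With 1 library left out, folds ranged from -0.024 to 0.15 for P2_5p, -0.039 to 0.095 for P8_3p*, -0.070 to 0.060 for P3_3p*, -0.11 to 0.016 for P1_3p* and -0.21 to 0.12 for P9_3p*, and ratio folds from -0.076 to 0.039 for P4, -0.093 to 0.076 for P10/P5, -0.16 to 0.026 for P2 and -0.29 to 0.021 for P9.

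Scaling by totals moved the median fold of all arms by 0.09 and upper-quartile scaling by 0.06. The median guide fold lay 0.22 below that median in all 3 scalings. Scaling multiplies all arms of a library by the same factor, so it shifts all folds almost equally. This distance therefore could hardly change, and it is no check on the choice of scaling. The number of guide folds below 0 could change, and it was 8 of 9 in all 3 scalings. The few reads behind P9* (10 to 31 per library) and P11* (12 in the lowest) limit what their ratios can show.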
